A study of Mus musculus with 20 samples.

Results

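The 10 genes described here are oogenesins and Prame-like genes: Oog1, Oog2, Oog3, Oog4, Pramef8, Pramef12, Pramel4, Pramel5, Pramel6 and Pramel7. They were taken by symbol, and 10 of 10 listed symbols were found among the 24411 gene symbols of each deposited comparison. Poly(A) RNA was measured by Smart-seq2 in 20 samples of mouse eggs and embryos, each a pool of 10 to 15, all untreated. The B6CASTF1 groups, F1 hybrids of a cross whose direction was not stated, were 3 samples of G1 zygotes, 3 of G2 zygotes and 2 of 2-cell embryos in G2. The C57BL/6J groups were MII eggs, G1 zygotes, G2 zygotes and 2-cell embryos in G2, with 3 samples each. Maturation of all eggs in culture followed release from dbcAMP, and all embryos came from in vitro fertilization with culture in KSOM. Nothing in the labels ties the samples to separate animals or collection days. The p-values therefore measure the spread between the samples sequenced, which may be technical.

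The PRAME family is a large group of leucine-rich repeat proteins that has multiplied in tandem in rodents, and its mouse members are known mostly from the germ line and early embryo. Oogenesins are known for transcripts that build up in the growing oocyte. Oog1 protein has been found in the nuclei of late 1-cell and early 2-cell mouse embryos and binds the Ral guanine nucleotide exchange factor RalGDS. Pramel7, known from mouse embryonic stem cells and the inner cell mass, brings the methylation cofactor UHRF1 to a cullin 2 ubiquitin ligase, and it acts downstream of LIF and STAT3. Pramef12 is known in mouse for a role in spermatogenesis.

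The tables hold comparisons of consecutive stages without the values of single samples. Sequencing depth is therefore unknown, and neither an SD nor the overlap of groups can be given. Levels below are approximate means of the authors' normalized count at each stage, solved from the strain mean and the fold changes. The SE of the log2 fold change had a median, among genes averaging 100 counts or more, of 0.36 to 0.40 in B6CASTF1 and 0.83 to 0.90 in C57BL/6J in the authors' deposited tables, so the hybrid comparisons were the more precise. The ratio of the SE of the 2-cell comparison to that of the G2 against G1 comparison had a median of 1.12 in B6CASTF1 and 1.0 in C57BL/6J, and 2 and 3 samples at the 2-cell stage give 1.12 and 1.0. All 8 oocyte markers had a level of at least 10 in every group. The summed level of the 7 markers of the 2-cell embryo was 21796 in B6CASTF1 2-cell embryos against 2479 in G2 zygotes, and 6879 in C57BL/6J 2-cell embryos against 1728 in G2 zygotes. The 10 cumulus and granulosa markers summed to between 302 and 2599 in the 7 groups, with 2 to 7 of them under 1. Those at 10 or more numbered 8 in B6CASTF1 G1 zygotes, 3 in G2 zygotes and 6 in 2-cell embryos of that strain, and 1 or 2 in the C57BL/6J groups. The 6 sperm and testis markers summed to between 25.0 and 189, with 2 to 4 of them under 1. The part of other cells in the results was not tested.

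Oog1 lay on chromosome 12, Pramel6 and Pramel7 on chromosome 2, and the other 7 genes in a cluster of PRAME family genes on chromosome 4 (GRCm38, GENCODE M21). The sequence upstream of the transcription start is shown for the 4 oogenesins because it is alike among them, and for Pramel6 and Pramel7 because these were at their highest at the 2-cell stage. Pramel4 and Pramel5 were also at their highest at that stage and have windows alike, which are not shown. Each line gives 250 bases before to 50 bases after the start, 5′ to 3′ on the strand of the gene, from RefSeq on GRCm38.p6. Capitals mark the words of at least 8 bases that occur in all 4 oogenesin windows, a search made after the sequences were seen. The windows are chr12:87602415-87602714 on the plus strand for Oog1, chr4:144190467-144190766 on the plus strand for Oog2, chr4:144162602-144162901 on the minus strand for Oog3 and chr4:143450275-143450574 on the minus strand for Oog4. Those of the Pramel pair are chr2:87506315-87506614 on the plus strand for Pramel6 and chr2:87492369-87492668 on the minus strand for Pramel7. The RefSeq start of Pramel7 lies 4675 bases downstream of its GENCODE gene start, so its window is inside the GENCODE gene, while the starts of the other 5 genes shown differ by at most 23 bases.
Oog1: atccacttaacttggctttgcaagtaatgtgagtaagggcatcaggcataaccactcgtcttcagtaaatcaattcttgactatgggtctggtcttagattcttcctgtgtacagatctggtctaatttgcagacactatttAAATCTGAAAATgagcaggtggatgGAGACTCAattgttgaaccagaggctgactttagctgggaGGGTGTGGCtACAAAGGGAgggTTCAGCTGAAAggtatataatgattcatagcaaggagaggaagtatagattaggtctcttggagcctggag
Oog2: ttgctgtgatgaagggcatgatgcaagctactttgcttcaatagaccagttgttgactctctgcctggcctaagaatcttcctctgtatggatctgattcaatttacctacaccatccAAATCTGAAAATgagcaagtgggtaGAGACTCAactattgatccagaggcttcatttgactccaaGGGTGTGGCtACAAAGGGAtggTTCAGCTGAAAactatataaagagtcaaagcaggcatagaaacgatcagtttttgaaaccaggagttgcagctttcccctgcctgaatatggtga
Oog3: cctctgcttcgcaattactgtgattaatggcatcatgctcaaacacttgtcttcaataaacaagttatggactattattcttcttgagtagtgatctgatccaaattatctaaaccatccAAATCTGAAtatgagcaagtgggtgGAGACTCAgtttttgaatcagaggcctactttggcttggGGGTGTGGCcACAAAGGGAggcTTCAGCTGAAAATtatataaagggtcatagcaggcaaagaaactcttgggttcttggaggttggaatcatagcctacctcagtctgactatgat
Oog4: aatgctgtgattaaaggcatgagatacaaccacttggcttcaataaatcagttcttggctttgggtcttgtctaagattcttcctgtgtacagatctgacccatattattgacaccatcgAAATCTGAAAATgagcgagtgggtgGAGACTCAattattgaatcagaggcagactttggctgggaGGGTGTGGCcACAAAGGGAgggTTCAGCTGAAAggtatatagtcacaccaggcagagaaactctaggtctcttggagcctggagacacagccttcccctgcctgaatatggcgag
Pramel6: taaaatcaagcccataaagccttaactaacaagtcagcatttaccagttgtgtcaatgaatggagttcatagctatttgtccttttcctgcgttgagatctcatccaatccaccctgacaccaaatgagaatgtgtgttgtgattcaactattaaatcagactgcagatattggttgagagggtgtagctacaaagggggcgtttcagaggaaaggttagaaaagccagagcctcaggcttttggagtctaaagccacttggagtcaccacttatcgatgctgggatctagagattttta
Pramel7: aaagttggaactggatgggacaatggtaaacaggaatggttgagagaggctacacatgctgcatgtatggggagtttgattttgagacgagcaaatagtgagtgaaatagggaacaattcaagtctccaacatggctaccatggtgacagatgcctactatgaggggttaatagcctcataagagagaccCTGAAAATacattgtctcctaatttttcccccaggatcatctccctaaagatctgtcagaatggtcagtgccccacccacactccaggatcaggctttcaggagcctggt

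The 4 oogenesin windows were 63.9 to 76.7% identical in pairwise alignment, and Pramel6 was 51.8 to 57.8% identical to them. The Pramel6 and Pramel7 windows were 44.6% identical to each other. Exactly 6 words of 8 to 11 bases occurred in all 4 oogenesin windows. The longest, TTCAGCTGAAA, began at -21 in Oog1, -45 in Oog2, -44 in Oog3 and -43 in Oog4, counted from the transcription start, and was found on either strand in 0.0517% of 32851 RefSeq promoter windows. Just upstream of it lay ACAAAGGGA, in 0.493% of all windows, and GGGTGTGGC, in 1.35%. None of these 3 words occurred in the other 5 member windows available, and CTGAAAAT, in 1.49% of all windows, was also in that of Pramel7. Pramel4 and Pramel5 had windows 83.4% identical, and a window for Pramef8 was not used here.

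Motifs fixed for the search were looked for on both strands in the 9 member windows. The core AAGGTCA of the Nr5a2 and Esrrb motif was in 0 of 9 member windows and in 4.72% of all windows. The Nobox element TAATTG was in 3 of 9 member windows, at -239 in Oog3, -99 in Oog4 and -158 in Pramef12, each on the strand opposite to the gene, and in 8.0% of all windows. The E-box CANNTG was in 9 of 9 member windows and in 72.3% of all windows, and its match CAGCTG lies inside the word TTCAGCTGAAA of the oogenesins. These matches describe letters in a short window and do not show binding.

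How well each gene can be told from its relatives differs widely, and it bears on every level below. For each member, the share of its 31-base words found in no other gene was counted over all GENCODE M21 transcripts. Pramef12 had 100% of its words to itself, Pramef8 99.7%, Pramel6 98.9%, Oog4 96.6%, Pramel7 91.4%, Oog3 73.1%, Pramel5 58.4% and Oog2 57.01%. Oog1 and Pramel4 had only 6.59% and 8.46%. Oog1 shared 90.2% of its words with Gm2042 and 72.1% with Gm10436, and Pramel4 shared 88.3% with Gm13102 and 30.8% with Pramel5. Oog2 shared 39.6% with Gm13084, and Oog3 shared 22.9% with Gm4350, a symbol not analysed here. How the authors divided reads between such copies was not stated, so the values of Oog1 and Pramel4 are uncertain. The longest open reading frames ran from 463 codons in Pramef12 to 503 in Pramel4. Between reading frames, identity was 70.4 to 80.4% among the 4 oogenesins, 85.2% between Pramel4 and Pramel5, and 56.2% between Pramel6 and Pramel7.

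**Figure D1:**
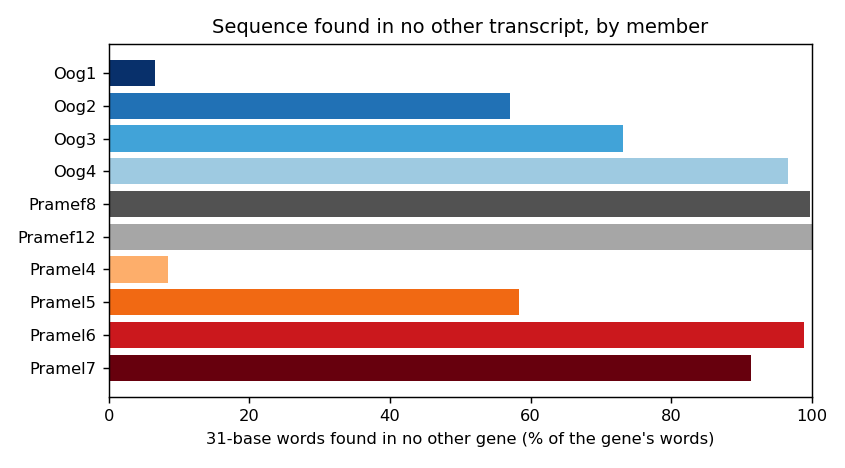
Bars give, for each of the 10 genes, the share of its 31-base words (% of the gene's words) that occur in no other gene of GENCODE M21. Oog1 (6.59%) and Pramel4 (8.46%) stand far below the other 8 genes, which lie between 57.01% and 100%.

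The oogenesins were abundant in eggs and zygotes. Per kilobase of its longest coding transcript, Oog3 had an approximate normalized count of 75615 in G1 zygotes, 55152 in G2 zygotes and 29295 in 2-cell embryos of B6CASTF1. In C57BL/6J the Oog3 level per kilobase was 122732 in MII eggs, 88943 in G1 zygotes, 60935 in G2 zygotes and 34872 in 2-cell embryos. Oog3 had the highest level per kilobase of the 10 genes in each of the 7 groups. In C57BL/6J MII eggs, Oog4 followed with 4978 per kilobase, Oog1 with 3229 and Oog2 with 2094. The 10 genes together held 1.05% of all normalized counts in G1 zygotes, 1.17% in G2 zygotes and 0.436% in 2-cell embryos of B6CASTF1. In C57BL/6J they held 1.23% in MII eggs, 1.23% in G1 zygotes, 1.01% in G2 zygotes and 0.395% in 2-cell embryos. Oog3 alone held 1.12% of all counts in C57BL/6J MII eggs. Because these are shares of the poly(A) RNA sampled from pooled embryos, a change in level and a change in poly(A) tail or in total RNA per embryo cannot be told apart.

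**Figure D2:**
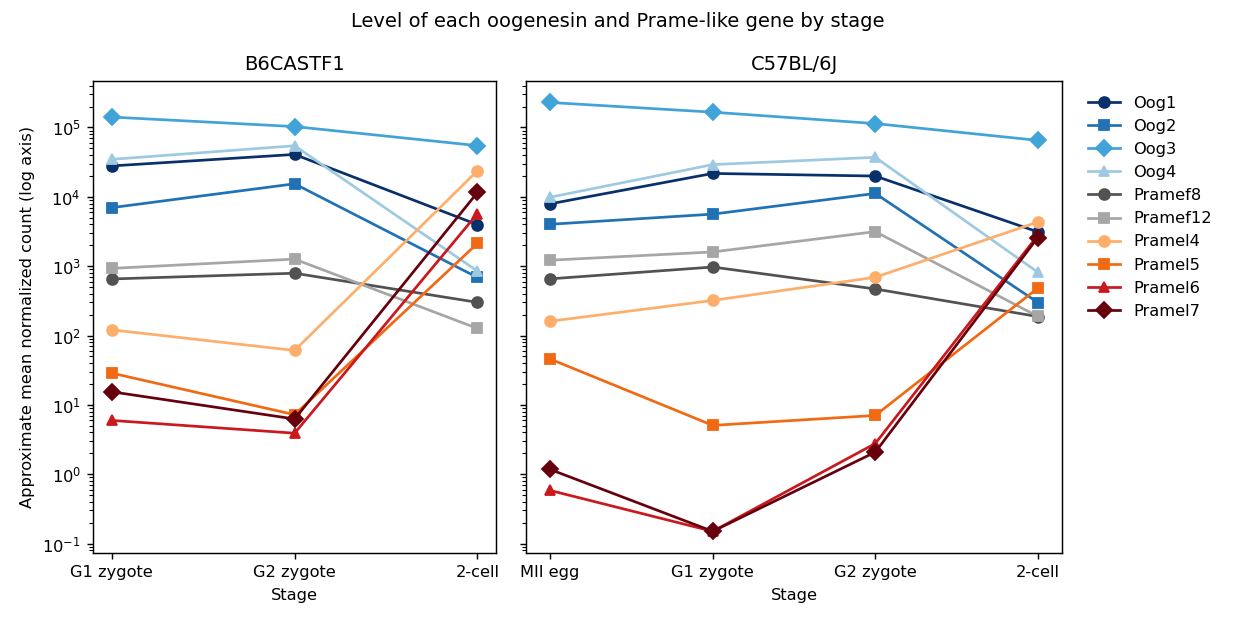
Lines give the approximate mean normalized count of each gene (log axis) by stage, in B6CASTF1 on the left and C57BL/6J on the right; the tables give no spread per sample. The oogenesins and Pramef genes are lower in 2-cell embryos than in G2 zygotes, and Pramel4, Pramel5, Pramel6 and Pramel7 are higher.

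**Figure D3:**
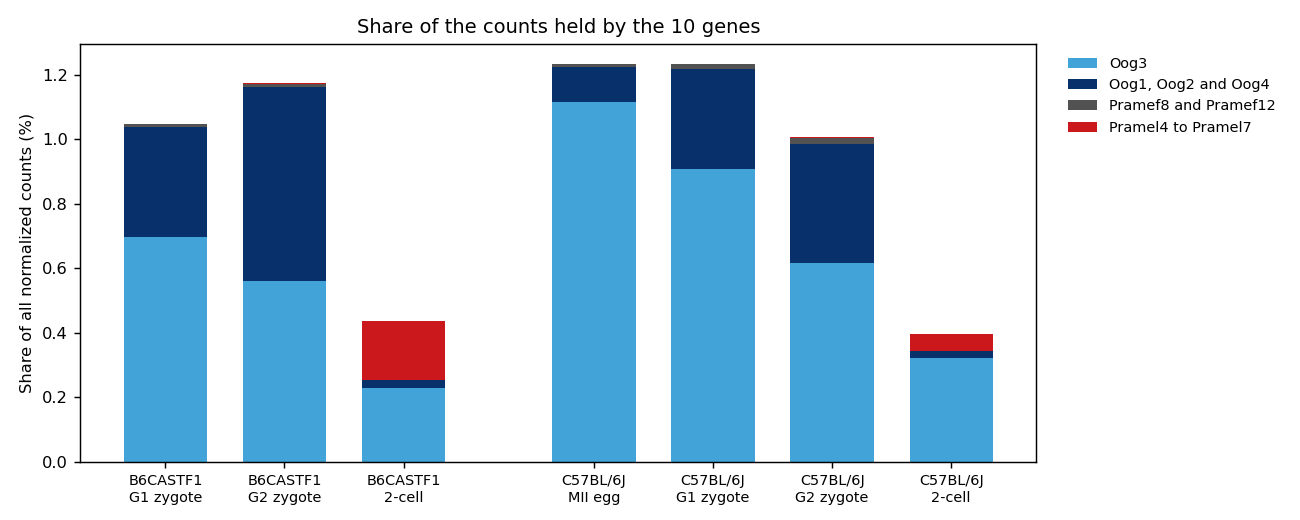
Stacked bars give the share of all normalized counts (%) held by Oog3, by the other oogenesins, by Pramef8 with Pramef12 and by Pramel4 to Pramel7, at each stage of each strain. In 2-cell embryos the 10 genes hold 0.436% in B6CASTF1 and 0.395% in C57BL/6J, of which Pramel4 to Pramel7 make up 0.181% of all counts in B6CASTF1 and 0.0504% in C57BL/6J. Of the summed level of 43143 for Pramel4 to Pramel7 in B6CASTF1, 23745 is that of Pramel4. Pramel4 has no p in that strain and 8.46% of its words to itself.

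The comparison of G1 zygotes with MII eggs, made in C57BL/6J only, asks what changes in the stored RNA upon fertilization. Of 8 members tested by DESeq2 in the authors' deposited table, 0 were higher and 0 lower at an adjusted p under 0.05, against 1.62% higher and 1.12% lower of the 13551 genes tested. Only Oog1 had an unadjusted p under 0.05. Its approximate level was 21703 in G1 zygotes and 7915 in MII eggs, and its log2 fold change of 1.46 had an SE of 0.57 and an adjusted p of 0.21 in the authors' deposited table. The 95% interval of that change was 0.35 to 2.56. The close copy Gm10436, named in RefSeq as Pramel51, was higher by 1.23 (adjusted p = 1.1e-04, SE 0.25), and Gm2042 by 0.79 (adjusted p = 0.0498, SE 0.25), in the authors' deposited table. Oog3 had a log2 fold change of -0.46 with a 95% interval of -1.36 to 0.44. Oog4 and Pramef12 had no p-value in the 3 deposited tables of C57BL/6J. DESeq2 withholds a p when a sample has an extreme count, and the table does not name the sample. A p was missing for 0.408% of genes with counts in B6CASTF1 and 10.3% in C57BL/6J.

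Between G2 and G1 zygotes, before the first cleavage, the oogenesins of B6CASTF1 moved in both directions. Oog2, Oog1 and Oog4 were higher in G2 zygotes and Oog3 was lower. Oog2 had an approximate normalized count of 15398 in G2 zygotes against 6969 in G1 zygotes, a log2 fold change of 1.14 (adjusted p = 1.1e-25, SE 0.10) in the authors' deposited table. Oog1 had 40797 in G2 zygotes against 27857 in G1 zygotes, and its log2 fold change was 0.55 (adjusted p = 9.5e-05, SE 0.12) in the authors' deposited table. Oog4 had 54386 in G2 zygotes against 34651 in G1 zygotes, with a log2 fold change of 0.65 (adjusted p = 0.0030, SE 0.18) in the authors' deposited table. For Oog3 the level was 102858 in G2 zygotes against 141022 in G1 zygotes, a fall of 1.37-fold. The authors' deposited table gives its log2 fold change as -0.46 (adjusted p = 0.013, SE 0.15). The 95% intervals of Oog2 (0.94 to 1.35) and Oog3 (-0.74 to -0.17) do not overlap, and these oogenesins are 75.8% identical in reading frame and 28056 bases apart. The call of Oog3 was lost at an adjusted p of 0.01, under Bonferroni, at a minimum absolute log2 fold change of 1 and with the SE raised 1.5 times, while that of Oog2 was kept under each.

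Pramel7 was also lower in B6CASTF1 G2 zygotes, at 6.26 against 15.4 in G1 zygotes, with a log2 fold change of -1.30 (adjusted p = 0.027, SE 0.46) in the authors' deposited table. Both levels are low, and the gene was at 11546 in 2-cell embryos. Pramef8, Pramef12, Pramel5 and Pramel6 did not pass in this comparison, and Pramel4 had no p. In all, 3 of 9 members tested were higher and 2 lower, against 9.63% higher and 9.63% lower of the 14668 genes tested. The median log2 fold change was 0.28 over the 9 members and 0.00 over all genes tested. The cumulus and granulosa markers summed to 1429 in these G2 zygotes against 2599 in G1 zygotes, with 3 against 8 of 10 at 10 or more, and their part in these calls was not tested.

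In C57BL/6J, 1 of 8 members tested was higher in G2 than in G1 zygotes and 0 lower, against 5.01% and 2.87% of 13264 genes. That member was Pramel6 (adjusted p = 0.047 in the authors' deposited table), whose approximate level was 2.77 in G2 zygotes and 0.150 in G1 zygotes. Pramel7 had 2.08 in G2 zygotes and 0.150 in G1 zygotes, and its adjusted p was 0.10 in the authors' deposited table. No fold is given for either gene here, since all of these levels lie under 3 normalized counts. The log2 fold change of Oog2, 0.99 with a 95% interval of -0.50 to 2.49, was near the value in the hybrids but did not pass. Oog1 had -0.12 (-1.23 to 0.98) and Oog3 -0.55 (-1.45 to 0.35).

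The 2-cell step, which spans the main wave of zygotic genome activation in the mouse, split the family. In B6CASTF1 the 4 oogenesins, Pramef8 and Pramef12 fell, while Pramel5, Pramel6 and Pramel7 rose. These 6 lower and 3 higher of 9 members tested compare with 26.8% lower and 33.1% higher of the 16128 genes tested. The summed level of the 8 oocyte markers was lower at this step too, at 13009 in 2-cell embryos against 102780 in G2 zygotes of B6CASTF1, and at 8641 in 2-cell embryos against 52771 in G2 zygotes of C57BL/6J. Oog4 had an approximate normalized count of 847 in 2-cell embryos against 54386 in G2 zygotes. Its log2 fold change was -6.00 (adjusted p = 1.0e-186, SE 0.20) in the authors' deposited table. Oog2 had 686 in 2-cell embryos against 15398 in G2 zygotes, with a log2 fold change of -4.49 (adjusted p = 1.1e-292, SE 0.12) in the authors' deposited table. For Oog1 the level was 3961 in 2-cell embryos against 40797 in G2 zygotes, and the log2 fold change was -3.36 (adjusted p = 1.3e-131, SE 0.14) in the authors' deposited table.

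Oog3 fell the least of the 4. Its level was 54634 in 2-cell embryos against 102858 in G2 zygotes, and its log2 fold change of -0.91 (adjusted p = 8.0e-08, SE 0.16) in the authors' deposited table had a 95% interval of -1.23 to -0.59. The intervals of Oog1 (-3.63 to -3.10), Oog2 (-4.73 to -4.25) and Oog4 (-6.41 to -5.60) overlap neither that of Oog3 nor one another. Per kilobase, the level of Oog3 in B6CASTF1 2-cell embryos, 29295, stood beside 1616 for Oog1, 428 for Oog4 and 358 for Oog2. Among genes less abundant in zygotes, Pramef12 had 126 in 2-cell embryos against 1263 in G2 zygotes. Its log2 fold change was -3.32 (adjusted p = 2.6e-23, SE 0.33) in the authors' deposited table. Pramef8 had 300 in 2-cell embryos against 791 in G2 zygotes and a log2 fold change of -1.40 (adjusted p = 2.4e-04, SE 0.36) in the authors' deposited table.

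Pramel7 and Pramel6, low in zygotes, rose by over 10 on the log2 scale in B6CASTF1 2-cell embryos. Pramel7 had an approximate normalized count of 11546 in B6CASTF1 2-cell embryos against 6.26 in G2 zygotes, a log2 fold change of 10.85 (adjusted p = 1.6e-146, SE 0.42) in the authors' deposited table. Pramel6 had 5720 in 2-cell embryos against 3.90 in G2 zygotes, a log2 fold change of 10.52 (adjusted p = 1.4e-86, SE 0.53) in the authors' deposited table. The pair lies head to head on chromosome 2, with GENCODE gene starts 9472 bases apart and RefSeq starts 14147 bases apart, and the 95% intervals of their changes overlap (10.03 to 11.67 for Pramel7, 9.48 to 11.55 for Pramel6). Pramel7 had 91.4% and Pramel6 98.9% of their words to themselves.

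Pramel5 had 2132 in B6CASTF1 2-cell embryos against 7.21 in G2 zygotes, with a log2 fold change of 8.21 (adjusted p = 6.6e-05, SE 1.94) in the authors' deposited table. Its SE was 3.68 to 4.65 times that of the Pramel6 and Pramel7 changes. Pramel4 had the highest level of the 4, 23745 in 2-cell embryos against 60.9 in G2 zygotes. The authors' deposited table gives a log2 fold change of 8.61 with an SE of 1.94 and no p, so no call can be made for Pramel4 in B6CASTF1. Per kilobase of transcript, Pramel4 stood at 9898, Pramel7 at 6204, Pramel6 at 3212 and Pramel5 at 993 in these 2-cell embryos.

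In C57BL/6J the same step had 2 members lower, Oog1 and Oog2, and 3 higher, Pramel5, Pramel6 and Pramel7, of 8 tested. Over all 12839 genes tested, 25.3% were lower and 25.0% higher. Oog2 had 299 in 2-cell embryos against 11173 in G2 zygotes, with a log2 fold change of -5.22 (adjusted p = 9.2e-11, SE 0.76) in the authors' deposited table. Oog1 had 3115 in 2-cell embryos against 19904 in G2 zygotes, with a log2 fold change of -2.68 (adjusted p = 1.2e-05, SE 0.57) in the authors' deposited table. Its copies Gm2042 (-2.78, SE 0.25, adjusted p = 8.3e-28) and Gm10436 (-1.62, SE 0.25, adjusted p = 8.0e-10) were lower too in the authors' deposited table. Oog3 and Pramef8 had log2 fold changes of -0.81 and -1.32 that did not pass, with 95% intervals of -1.71 to 0.09 and -3.17 to 0.53. Oog4 and Pramef12, without a p in this strain, had log2 fold changes of -5.51 (-7.35 to -3.66) and -4.06 (-6.09 to -2.03).

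Pramel6 had 2779 in C57BL/6J 2-cell embryos against 2.77 in G2 zygotes, and Pramel7 had 2587 against 2.08. Their log2 fold changes in the authors' deposited table were 9.97 (adjusted p = 2.5e-30, SE 0.84) for Pramel6 and 10.28 (adjusted p = 1.4e-26, SE 0.93) for Pramel7. Since the G2 levels lie under 3 counts, the size of these folds is loosely set, while the 2-cell levels are not low. Pramel5 had 483 in 2-cell embryos against 7.04 in G2 zygotes, a log2 fold change of 6.10 (adjusted p = 0.010, SE 2.13) in the authors' deposited table. Pramel4 had 4328 in 2-cell embryos against 692 in G2 zygotes, and its log2 fold change of 2.65 (adjusted p = 0.074, SE 1.29) did not pass in the authors' deposited table.

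**Figure D4:**
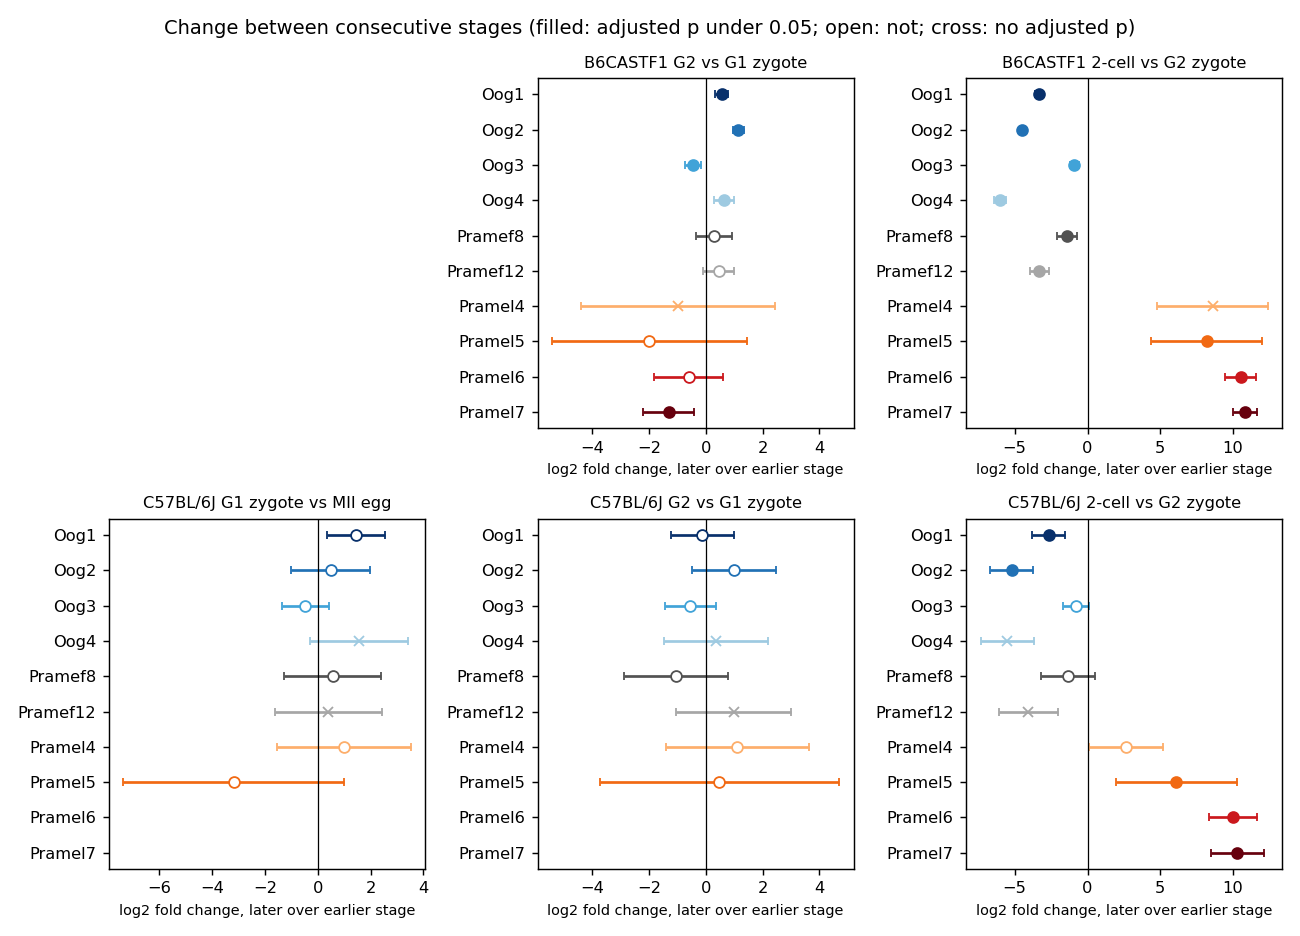
Points give the log2 fold change of each gene, later over earlier stage, with its 95% interval, in B6CASTF1 (upper row) and C57BL/6J (lower row). Filled points have an adjusted p under 0.05, open points do not, crosses have none, and genes with both levels under 3 normalized counts are not drawn. At the 2-cell step, Oog1 to Oog4 lie left of 0 and Pramel4 to Pramel7 right of it in both strains.

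From MII egg to 2-cell embryo in C57BL/6J, the 3 steps were added with an SE that allows for shared samples. By that sum, 3 of 8 members tested were higher in 2-cell embryos than in MII eggs and 3 lower, against 21.1% higher and 21.0% lower of 15900 genes. Oog3, which did not pass at any single step, had a net log2 change of -1.82 (adjusted p = 3.2e-04, SE 0.46), with levels of 65036 in 2-cell embryos and 228895 in MII eggs. Oog2 had a net change of -3.75 (adjusted p = 5.5e-06, SE 0.76) and Oog1 of -1.35 (adjusted p = 0.043, SE 0.57). The higher members were Pramel6, Pramel7 and Pramel4. Pramel4 had a net change of 4.75 (adjusted p = 8.5e-04, SE 1.29). Pramel6 had 2779 in 2-cell embryos and 0.583 in MII eggs, and Pramel7 had 2587 in 2-cell embryos and 1.17 in MII eggs. Pramef8 (-1.81, 95% interval -3.65 to 0.04) and Pramel5 (3.40, -0.74 to 7.53) did not pass.

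The strains could be compared for 7 members that had an adjusted p in both. At the 2-cell step 0 of 7 differed at an adjusted p under 0.05, and 0 at an unadjusted p under 0.05, against 11.6% of 12573 genes with a higher and 5.03% with a lower log2 fold change in B6CASTF1. For Oog3 the difference, B6CASTF1 minus C57BL/6J, was -0.11 with a 95% interval of -1.06 to 0.85. For Oog1 it was -0.69 (-1.83 to 0.45) and for Oog2 0.74 (-0.78 to 2.25). Pramel6 and Pramel7 differed by 0.55 (-1.40 to 2.50) and 0.57 (-1.43 to 2.57), and Pramel5 by 2.11 (-3.54 to 7.76). Pramel4, which had no p in B6CASTF1, was not among the 7 and was not tested. Its difference was 5.96 (SE 2.33), with an unadjusted 95% interval of 1.40 to 10.52. Its G2 zygote levels were 60.9 in B6CASTF1 and 692 in C57BL/6J, and 8.46% of its words were its own. For 4 of the 7 genes, Pramef8 and Pramel5 to Pramel7, the interval leaves room for a difference of more than 2-fold in either direction.

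At the G2 against G1 step 0 of 7 members differed between strains, against 1.04% of 12517 genes with a higher and 0.879% with a lower change in B6CASTF1. An unadjusted p under 0.05 was reached by 2 members, Pramel7 (adjusted p = 0.057) and Pramel6 (adjusted p = 0.092), whose C57BL/6J zygote levels lay under 3 counts. The B6CASTF1 samples were normalized apart from those of C57BL/6J, so strain and library set cannot be told apart.

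Beside the 10 members, 38 further genes were counted with the PRAME family, by name, annotation or a list fixed with them. At the 2-cell step in B6CASTF1, 20 of 36 tested were higher and 11 lower, beside 33.1% higher and 26.8% lower over all genes. In C57BL/6J 4 of 28 were higher and 13 lower, beside 25.0% and 25.3%. Among those higher in both strains were B020031M17Rik and BC147527 on chromosome 13, taken from the list without a Prame or oogenesin name in RefSeq. BC147527 shared 2.49% of its words with Tcstv3, a marker of the 2-cell embryo used above. The pairs Gm13040 with Gm13057 and BC061212 with Gm7978 carry identical values in the tables, and with each pair counted once the B6CASTF1 count is 18 higher and 11 lower of 34. Of the 28 genes with a Prame or oogenesin name in RefSeq, 14 were higher and 9 lower of 26 tested in B6CASTF1, and 2 higher and 11 lower of 21 tested in C57BL/6J. Gm13023 (RefSeq Pramel25) fell in both strains, with log2 fold changes of -4.10 (adjusted p = 2.4e-197, SE 0.14) in B6CASTF1 and -3.55 (adjusted p = 1.1e-22, SE 0.35) in C57BL/6J in the authors' deposited tables. C87977 (Pramel29), the neighbour of Oog2, fell, at -4.97 (adjusted p = 1.9e-179, SE 0.17) in B6CASTF1, and Gm13084 (Pramel26) fell, at -5.40 (adjusted p = 6.6e-19, SE 0.58) in C57BL/6J, in the authors' deposited tables. E330014E10Rik had a level of 2.12 in C57BL/6J 2-cell embryos against 2446 in G2 zygotes (adjusted p = 1.3e-36 in the authors' deposited table). Of its words, 3.84% were its own. Gm3139 (Pramel42), on chromosome 5, was the riser with the smallest p, at 7.64 (adjusted p = 1.1e-140, SE 0.30) in B6CASTF1 in the authors' deposited table, with 90.3% of its words shared with other genes.

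At the earlier steps, 13 of 36 other family genes were higher in G2 than in G1 zygotes of B6CASTF1 and 0 lower by DESeq2, beside 9.63% in each direction over all genes. The 13 were also those with an unadjusted p under 0.05, and with the identical pairs counted once they are 12 of 34. In C57BL/6J 0 of 28 passed at that step, beside 5.01% higher and 2.87% lower over all genes. There, 4 of the 28 had an unadjusted p under 0.05. Between G1 zygotes and MII eggs, Gm10436 was the 1 of 28 that passed. Gm2042, with which Oog1 shared 90.2% of its words, was not counted among the family genes. It too passed between G1 zygotes and MII eggs, at an adjusted p of 0.0498 by DESeq2 in the authors' deposited table. The direction of Oog1, Oog2 and Oog4 in B6CASTF1 G2 zygotes was that of the 13, and Oog3 fell. Of the 13, A430089I19Rik, BC061212, Gm7978, BC080695 and Gm12794 had low G1 zygote levels, from 1.45 to 7.08. These genes were higher again in B6CASTF1 2-cell embryos, while the rest of the 13 were lower there, as were the oogenesins. The 13 include Gm10436, with which Oog1 shared 72.1% of its words, and Gm13084, with which Oog2 shared 39.6%. Their values are therefore not independent, and the part of shared reads in the common direction was not tested.

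The chromosome 4 cluster held 25 family genes, 7 of them members, within 1014037 bases from Pramel1 to Pramef12 (chr4:143394428-144408464, GRCm38). At the 2-cell step in B6CASTF1, 12 of these 25 rose, 9 fell, 3 did not pass and 1, Pramel4, had no p, beside 33.1% higher and 26.8% lower over all genes tested. With Gm13040 and Gm13057 counted once, 11 of 24 rose and 9 fell. Whether risers and fallers lay in runs along the cluster was not tested. Of the 20 pairs of consecutive genes that passed, 7 had opposite directions (7 of 19 with that pair counted once). The other pairs shared a direction. Pramel5 rose between C87977 and Gm13128, the first falling and the second rising, and Oog2 and Oog3 fell near Pramel4 with its 2-cell level of 23745. In C57BL/6J 1 of the 25 rose (Pramel5), 7 fell, 7 did not pass and 10 had no adjusted p, beside 25.0% higher and 25.3% lower over all genes tested. Neighbours share sequence, so their values are not independent.

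**Figure D5:**
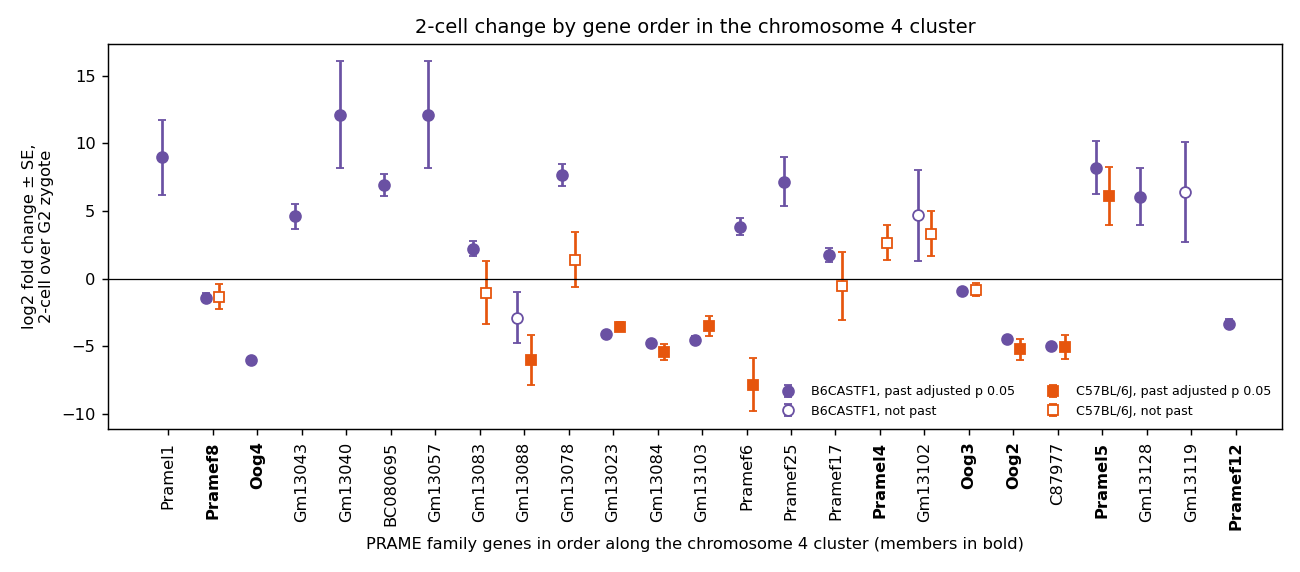
Points give the log2 fold change with its SE, 2-cell embryos over G2 zygotes, of the 25 PRAME family genes in their order along the chromosome 4 cluster, in B6CASTF1 (circles) and C57BL/6J (squares); filled points have an adjusted p under 0.05 and genes without one are not drawn. In B6CASTF1, 12 genes lie above and 9 below 0 among the filled points, with members on both sides.

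Partners of these proteins were followed in lists fixed with the members. The CUL2 ligase list held cullin 2 (Cul2), its RING partner Rbx1, elongins B and C (Tceb2 and Tceb1), the Pramel7 target Uhrf1 and the maintenance methyltransferase Dnmt1. At the 2-cell step in B6CASTF1, 3 of 6 rose and 2 fell, beside 33.1% and 26.8% of all genes, and the median log2 fold change was 0.57 over the list and 0.55 over all genes. Tceb2 rose by 7.23 (adjusted p = 5.2e-17, SE 0.84), Tceb1 by 2.26 (adjusted p = 1.9e-38, SE 0.17) and Cul2 by 1.11 (adjusted p = 6.2e-05, SE 0.26) in the authors' deposited table. Uhrf1 had a level of 194 in 2-cell embryos against 3182 in G2 zygotes, and Dnmt1 had 537 against 10400. The log2 fold changes were -4.03 (adjusted p = 1.2e-88, SE 0.20) for Uhrf1 and -4.27 (adjusted p = 3.2e-164, SE 0.16) for Dnmt1 in the authors' deposited table. Rbx1 had a log2 fold change of 0.03 and did not pass. In C57BL/6J Cul2 (2.90), Tceb2 (5.82) and Tceb1 (1.49) rose and Rbx1 (-0.74), Uhrf1 (-1.69) and Dnmt1 (-2.81) fell on the log2 scale in the authors' deposited table. These are poly(A) RNA levels, and protein was not measured.

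In the list from LIF to STAT3, 3 of 7 genes tested rose and 3 fell in B6CASTF1 2-cell embryos, beside the same 33.1% and 26.8%, with a median log2 fold change of 0.59 over the list and 0.55 over all genes. The receptor gene Lifr rose by 2.30 (adjusted p = 0.0014, SE 0.67), and the kinase genes Tyk2 by 3.67 (adjusted p = 5.5e-12, SE 0.52) and Jak2 by 0.59 (adjusted p = 3.8e-04, SE 0.16), in the authors' deposited table. Stat3 itself fell, with a log2 fold change of -1.54 (adjusted p = 4.6e-05, SE 0.36), as did the kinase gene Jak1 at -2.29 (adjusted p = 1.3e-10, SE 0.34) and the co-receptor gene Il6st at -2.41 (adjusted p = 1.6e-05, SE 0.53) in the authors' deposited table. In C57BL/6J Lifr rose and Il6st, Jak1 and Stat3 fell, 1 and 3 of 7 tested, while Jak2, Tyk2 and the inhibitor Socs3 did not pass. The ligand gene Lif stayed under 1 normalized count in each group.

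In the RalGDS list, 0 of 6 genes rose and 2 fell in B6CASTF1 2-cell embryos, beside 33.1% and 26.8% of all genes, and the median log2 fold change was 1.184 over the list and 0.550 over all genes. The small GTPase gene Rala fell, with a log2 fold change of -1.85 (adjusted p = 3.8e-20, SE 0.20) and the exchange factor gene Rgl1 at -1.14 (adjusted p = 0.020, SE 0.45) in the authors' deposited table. Ralgds, the exchange factor that Oog1 binds in mouse, had a level of 144 in 2-cell embryos against 113 in G2 zygotes and did not pass (log2 fold change 0.35, adjusted p = 0.63, SE 0.61 in the authors' deposited table). Rgl2, Rgl3 and Ralb did not pass either. In C57BL/6J 0 of 4 passed in either direction at this step, and Rala, at 548 in 2-cell embryos against 1013 in G2 zygotes, had a log2 fold change of -0.89 (adjusted p = 0.069, SE 0.42) in the authors' deposited table.

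The genes most like each member were taken as the 2 with the smallest Euclidean distance over the 5 log2 fold changes. The candidates were 7538 genes averaging 100 counts or more in both strains. Genes with a Gm or Rik symbol were left out, PRAME family copies among them, so a closer gene can be missing. Gm13084, so left out, had 2-cell changes of -4.73 in B6CASTF1 and -5.40 in C57BL/6J, beside -4.49 and -5.22 for Oog2. Oog3 had the closest, the bromodomain gene Brwd1 at 0.31 and the liprin gene Ppfia1 at 0.39 on the log2 scale. The nearest to Oog4 were Cyp4a14 (0.85) and Nobox (1.06), an oocyte homeobox transcription factor. Oog2 lay near Car10 (0.49) and AA536875 (0.60), Oog1 near Ltc4s (0.76) and Ccdc92 (0.79), Pramef12 near Cdo1 (0.41) and Plac8 (0.54), and Pramef8 near Mapkap1 (0.54) and Kpna3 (0.56). For the risers the nearest were Ctsz (0.63) and Npl (0.65) to Pramel6, and Kpna1 (0.96) and Cst7 (1.09) to Pramel7. The neighbours of Pramel5, Itpa (1.70) and Sec61a2 (2.43), and of Pramel4, Wdr45b (1.93) and Zscan5b (1.94), were farther off. The 5 values come from 7 groups that share samples between steps, so the distances describe a pattern and were not tested.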

How the data were processed

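Poly(A) RNA of eggs and embryos was profiled by oligo-dT primed Smart-seq2, per the labels' protocols. The submitters' processing notes name the build mm10 and the tools DESeq2, kallisto, TopHat, Picard and bcl2fastq, without the role of each. The authors used DESeq2 1.18.1, by the names of the files. The authors deposited 5 tables with, per the file headers, a mean normalized count (a signal averaged over all samples of the strain), log2 fold changes (plain and shrunken), an SE and a Wald score, and p-values before and after adjustment. Library depth is unknown.

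The 10 members and all lists were chosen with earlier results of these data known. The authors' DESeq2 tests were read at an adjusted p under 0.05 over all genes, and no test was run over members alone. Stage levels were solved from the strain's mean and fold changes, weighted by samples per stage. Strain differences used the root of the summed squared SE, and the net change from MII egg to 2-cell embryo added 3 fold changes with the variance of a one-way design. Both took a normal p adjusted by Benjamini-Hochberg over all genes, and 95% intervals are 1.96 SE on either side. Both were run on simulated fold changes with normal errors of known size. That checks the calculation and not whether its assumptions hold for these samples. Levels under 3 counts in both stages were given no fold. Word sharing and reading frames came from GENCODE M21, promoter windows from RefSeq (GRCm38.p6). Named genes were all members, the 3 other family genes with the smallest p at each 2-cell step, all partner lists and the 2 nearest genes per member; Gm2042, Gm10436, Gm13102, Pramef6, Gm13078 and C87499 were chosen after their values were seen. Alternatives were stricter thresholds, Bonferroni, a minimum fold change or mean count, no filter, a larger SE, recentring, shrunken values and, chosen after seeing the data, members with at least 50% unique words, and family genes with identical values counted once. Work was done in Python 3.11.15 with numpy 2.4.6, pandas 2.3.3, scipy 1.17.1, Biopython 1.88 and matplotlib 3.10.9.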

Additional observations from a re-analysis of the deposited data

Results flagged for a closer look

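Among the family genes compared between strains, 3 had 2-cell changes that differed by the test of the difference, and 0 of the 7 members tested did. Pramef6, which lies with Pramel4 in the chromosome 4 cluster, had a level of 1425 in B6CASTF1 2-cell embryos against 98.7 in G2 zygotes, and of 0.246 in C57BL/6J 2-cell embryos against 56.6 in G2 zygotes. The difference in log2 fold change, B6CASTF1 minus C57BL/6J, was 11.70 (SE 2.07, adjusted p = 9.4e-07), and 50.1% of the words of Pramef6 were its own. Gm13078 (RefSeq Pramel24) had 9372 in B6CASTF1 2-cell embryos against 46.2 in G2 zygotes, and 61.3 in C57BL/6J 2-cell embryos against 23.1 in G2 zygotes, a difference of 6.26 (SE 2.20, adjusted p = 0.031). C87499 (RefSeq Pramel32) fell further in B6CASTF1, to 835 in 2-cell embryos against 19900 in G2 zygotes, than in C57BL/6J, with 2291 against 12091, a difference of -2.17 (SE 0.66, adjusted p = 0.0098).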

How the results depend on the processing

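No alternative reversed a member's direction in 84 rechecks of single fold changes, and no call was lost or gained under recentred values. The rechecks with shrunken values kept the p of the plain ones, so they could not change a call and bear on direction only. Of 60 alternative counts of members called, 51 stayed within 1.5 times the reported count. Part of these 51 could not have moved, so the tally is no measure of robustness. Shrunken values keep each call, the minimum mean count removes no member, and stricter rules cannot lower a count of 0. The single C57BL/6J call in G2 against G1 zygotes, Pramel6, became 0 at an adjusted p of 0.01, under Bonferroni, with no filter on low counts and with the SE raised 1.5 times. The 5 calls of that step in B6CASTF1 became 3 at an adjusted p of 0.01, 1 under Bonferroni, 2 at a minimum absolute log2 fold change of 1 and 2 with the SE raised 1.5 times; Oog2 was called under each of these. The 6 net calls became 3 (Pramel6, Pramel7 and Oog2) with an SE that ignores shared samples. At the 2-cell step the counts ran from 7 to 9 in B6CASTF1 and 4 to 5 in C57BL/6J, and strain differences stayed at 0. With 3 instead of 2 samples at the B6CASTF1 2-cell stage, 2-cell levels became 4294 for Pramel6 and 57714 for Oog3. No paired analysis was possible because values of single samples are not part of the tables. Leaving out a replicate was not run for the same reason.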

Other observations

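Some family genes outside the members, named here after their values were seen, cannot be told apart in these tables. Gm13040 and Gm13057 carry identical values in the 5 tables, with a level of 738 in B6CASTF1 2-cell embryos against 0.165 in G2 zygotes, and have 0.0964% and 0% of their words to themselves. The same holds for BC061212 and Gm7978, at 362 in B6CASTF1 2-cell embryos against 50.2 in G2 zygotes, with 0% of words unique to either. Gm13040 and Gm13057 had 0.146 in C57BL/6J 2-cell embryos. Prame itself, the gene that gives the family its name, had 5.19 in 2-cell embryos against 0.150 in G2 zygotes of B6CASTF1, and 41.9 in 2-cell embryos against 0.191 in G2 zygotes of C57BL/6J. No adjusted p was given for Prame in either strain, so no call can be made. Pramel1 had 82.7 in B6CASTF1 2-cell embryos and was listed at 0 throughout C57BL/6J.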
